A study of Mus musculus with 20 samples.

Results

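The genes described here encode potassium channels, and they were taken as every row of the deposited count table with a symbol starting with Kcn and a summed count of at least 400 over the 20 libraries, with the highest row kept where a symbol had several. The rule gave 81 genes of 95 such symbols, in a table with 26475 rows that carry a symbol. Of the 81, 79 encode pore or auxiliary subunits. The other two encode none and are left out of every count: Kcnq1ot1 is a noncoding RNA, and Kcnrg lies in a row shared with Trim13. The sum of counts chose the members, so levels are given as a description, without a test. Just inside the threshold stood Kcnk5 with 408 counts, Kcne4 with 676 and Kcne2 with 842, and just outside it Kcnk15 with 190, Kcnn4 with 174 and Kcnmb3 with 147.

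The libraries come from the whole striatum of 20 male mice aged about 6 months, all labelled Collaborative Cross, a mouse population built from several inbred founder strains. Mice of a line selected for overactivity in the cage and mice of a control line were injected with saline or with d-amphetamine at 25 mg/kg, and the tissue was taken 2 hours later. This gives 4 groups of 5 mice: control saline, control amphetamine, overactive saline and overactive amphetamine. Amphetamine releases dopamine from nerve terminals, which are dense in the striatum. Library totals ran from 31393788 to 53773028 counts, and a level is given in CPM after TMM scaling, that is reads of a gene relative to the scaled size of its library.

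Potassium channels let potassium leave or enter the cell and so set the resting potential and end action potentials. Pore subunits assemble in groups, and auxiliary subunits change their gating, their place in the membrane or their number at the surface. Striatal projection neurons are known for a strong inward rectifier current, which holds them at a hyperpolarized potential, and for A-type currents carried by Kv4 channels. Astrocytes clear potassium through the inward rectifier encoded by Kcnj10.

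All 15 markers of striatal projection neurons reached a mean of 1 CPM over the 20 libraries, with summed levels from 6113 to 9634 CPM in single libraries. Dissected striatum can carry tissue from its neighbours, and the markers of these neighbours differed between groups. The summed level of 20 markers of cortical and hippocampal excitatory neurons had a median of 598 CPM in overactive saline (range 498 to 904), 1042 in control saline (812 to 1700), 1478 in control amphetamine (1342 to 1867) and 1231 in overactive amphetamine (661 to 1906). None of the 20 was at 0. For 19 markers of thalamic, hypothalamic and septal neurons the 4 highest libraries were overactive saline 1 and 4 and overactive amphetamine 2 and 3. In whole tissue, fewer cells of a type and less RNA per cell cannot be told apart.

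Channel genes spanned a wide range of levels, compared between genes per kilobase of annotated exon. The median over 79 genes was 9.31 CPM per kilobase, with quartiles at 2.06 and 18.2 and a range from 0.143 for Kcnk5, a two-pore channel, to 87.3 for Kcnip2. In all, 37 genes reached 10 CPM per kilobase, 14 stayed under 1, and the 10 highest held 46.5% of the summed level. Kcnip2, the calcium-binding partner of Kv4 pores, was followed by Kcnj4, a classical strong inward rectifier, at 79.8 CPM per kilobase. Next came Kcna1, a Kv1 pore of axons, at 59.8, Kcnj10 at 49.3, Kcnab2, a beta subunit of Kv1, at 49.0 and Kcnab1, another beta subunit, at 44.1.

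In several roles 1 gene stood well above the rest. Among Kv4 pores Kcnd2 had 40.7 CPM per kilobase and Kcnd1 2.76. The two-pore group was led by Kcnk1 (42.4). By contrast, the 4 Kv3 pores of fast-spiking neurons ranged only from 9.60 for Kcnc4 to 18.6 for Kcnc1. Inward rectifiers gated by G proteins held 3 genes of like level, Kcnj9 at 16.2, Kcnj3 at 11.35 and Kcnj6 at 7.485 CPM per kilobase, and Kcnj5, the subunit typical of the heart, at 0.647. The plot of levels by role shows these spreads.

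**Figure D1:**
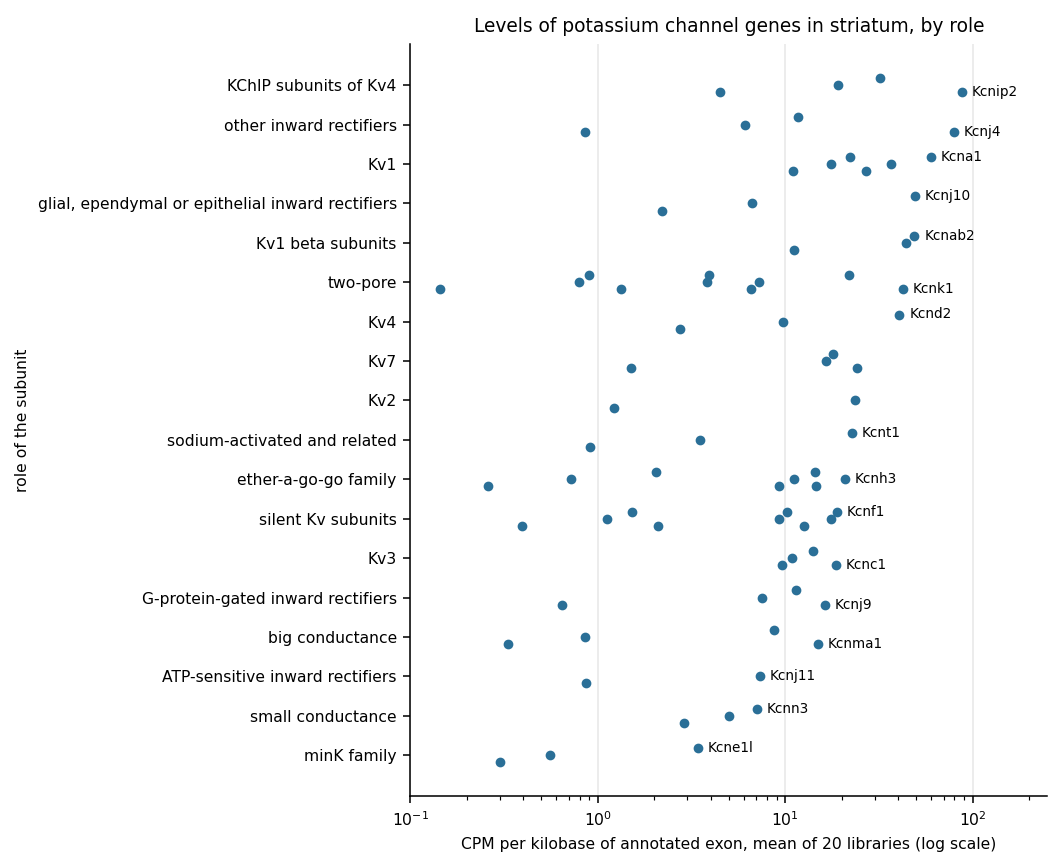
Mean level of each of the 79 channel genes over 20 libraries, in CPM per kilobase of exon on a log scale, grouped by role, with 1 point per gene and the highest gene named for most roles. Kcnip2 at 87.3 and Kcnj4 at 79.8 lead, and most roles hold genes that differ many-fold.

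Of the abundant genes, the following had overlapping groups throughout. Kcnip2 had 328 ± 44.7 CPM in control saline, 314 ± 30.6 in control amphetamine, 303 ± 59.0 in overactive saline and 270.2 ± 14.9 in overactive amphetamine (SD, n = 5 each). Kcnj4 had 179 ± 13.4, 182 ± 15.6, 157 ± 28.4 and 169 ± 26.5 CPM in the same order, and Kcnd2 had 207 ± 18.6, 219 ± 6.33, 204 ± 19.5 and 209 ± 12.9. None of the 3 passed the test in any comparison.

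The lines were compared to ask how mice selected for overactivity differ in their channel genes. Over both treatments 6 of the 79 genes passed the edgeR quasi-likelihood test at an adjusted p under 0.05, a share of 7.6%, close to the 7.02% of all 17206 genes tested. Kcnj10, Kcnn2 and Kcna6 were higher in the overactive line (3.71% of all genes), and Kcnk2, Kcnt1 and Kcnh3 were lower (3.31%). The median log2 difference over the 79 genes was -0.03, and 34 of 79 were positive (43.0%, against 50.2% of all genes). In saline alone 0 of 79 passed, with 1.11% of all genes called, and 25 of 79 had an unadjusted p under 0.05 (17.3% of all genes). That count was 9 without control saline 5, 13 without overactive saline 4 and 4 with a score of the cortical markers as a covariate (8.44% of all genes in that last fit). Under amphetamine alone 0 passed, with 0.453% of all genes called, and 9 had an unadjusted p under 0.05 (12.9% of all genes). The 9 became 3 without control amphetamine 5, 4 without overactive amphetamine 2 and 3 with a score of the thalamic markers as a covariate (8.75% of all genes in that last fit). DESeq2 called 4 in saline (Kcnj10, Kcnk2, Kcnn2 and Kcnj9), a share of 5.06% against 4.44% of all genes. Under amphetamine it called 2 (Kcnj10 and Kcnk2), 2.53% against 1.87% of all genes.

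Kcnj10, the potassium-clearing channel of astrocytes (chromosome 1, 172341210 to 172374085, GRCm38, protein coding), stood at 203, 225, 219.8, 250.1 and 198 CPM in control saline libraries 1 to 5 and at 251, 232, 279.9, 217 and 176 CPM in control amphetamine. Its overactive libraries stood at 368, 276, 259, 344 and 267 CPM in saline and at 265, 313, 287, 326 and 373 under amphetamine. The saline groups did not overlap, which held for 2.36% of all genes in that direction, the amphetamine groups overlapped, and 10 of 10 overactive libraries were above the control median. The log2 difference over both treatments was 0.45 (SE 0.09, edgeR adjusted p = 0.004592). Markers of astrocytes lay in the same direction: 8 of 9 tested were higher, 3 of them past the test (Aldh1l1, Gja1 and Fgfr3), with a median log2 of 0.20. The shift was not particular to astrocytes. Markers of oligodendrocyte precursors were higher in 8 of 8 (median log2 0.22, 1 past the test). Those of oligodendrocytes were higher in 8 of 9 (median 0.19, 1 past the test). Microglial markers were higher in 3 of 10 (median -0.10), with 2 past the test as lower. The part of these cell types in the Kcnj10 result was not tested.

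Kcnj10 is next to Kcnj9 on chromosome 1, with 11891 bases between the annotated genes, which run away from each other. Within 1 Mb of Kcnj10, 7 of 35 other genes tested also passed the line test (20%, 3 higher and 4 lower, against 7.02% of all genes). This was the highest such share among the called channel genes. It was 17.6% around Kcna6, 6.06% around Kcnt1, 2.13% around Kcnh3 and 0% around Kcnk2 and Kcnn2. Kcnj9, the G-protein-gated neighbour of Kcnj10, did not pass the line test: its log2 difference in saline was -0.43 (SE 0.13, edgeR adjusted p = 0.1066). Because these neighbours had line differences of opposite sign in saline, the 250 bases before the start of each are shown. They are RefSeq sequence of GRCm38.p6, the reference strain and not the mice of the study, read in the direction of transcription, with matches to the motifs searched in capitals. Kcnj10 is chr1:172340960-172341209 on the plus strand and Kcnj9 is chr1:172329323-172329572 on the minus strand.
Kcnj10: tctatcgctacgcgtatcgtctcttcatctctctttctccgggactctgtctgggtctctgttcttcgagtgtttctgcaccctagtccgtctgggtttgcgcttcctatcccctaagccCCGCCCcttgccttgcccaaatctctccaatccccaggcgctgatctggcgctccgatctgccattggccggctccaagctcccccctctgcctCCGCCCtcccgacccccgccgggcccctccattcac
Kcnj9: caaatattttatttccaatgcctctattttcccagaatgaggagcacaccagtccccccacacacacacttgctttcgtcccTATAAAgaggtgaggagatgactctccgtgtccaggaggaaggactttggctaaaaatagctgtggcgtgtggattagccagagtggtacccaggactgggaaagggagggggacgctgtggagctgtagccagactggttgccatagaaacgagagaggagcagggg

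The motifs searched on both strands were TGACGTCA and its core TGACG (the cyclic AMP response element), TGANTCA (AP-1), GGGCGG (the GC box) and TATAAA (the TATA box). A match to TGACGTCA always holds one to TGACG. Kcnj10 held 2 GC boxes and Kcnj9 held 1 TATA box, which begins 168 bases before the start. Of 32851 such windows in the RefSeq table, 32.7% held a GC box, 12.4% a TATA box, 17.8% the core TGACG, 6.7% AP-1 and 1.5% the full TGACGTCA. Among the 83 windows of the 59 members that the table lists (of 81), the shares were 45.8%, 3.6%, 18.1%, 3.6% and 0.0%. Some members have several windows. The median share of G and C bases was 58.8% in these 83 windows and 52.4% in all windows. A match is a run of letters and no measured site.

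Kcnn2, a small conductance channel opened by calcium that shapes the pause after a spike, had 34.6, 35.2, 36.4, 30.6 and 31.2 CPM in control saline and 38.9, 30.4, 33.6, 33.8 and 40.8 in control amphetamine. The overactive line had 39.2, 38.3, 37.8, 40.5 and 41.9 CPM in saline and 40.4, 41.4, 39.0, 45.5 and 39.8 under amphetamine. The row of Kcnn2 overlaps A330093E20Rik. The saline groups were apart, which held for 2.36% of all genes in that direction, and the amphetamine groups overlapped. The log2 difference over both treatments was 0.23 (SE 0.05, edgeR adjusted p = 0.01375). Kcna6, a Kv1 pore (chromosome 6, 126708329 to 126740674), had 97.3, 94.7, 85.6, 100.1 and 89.2 CPM in control saline and 100.2, 112, 101, 99.6 and 92.5 in control amphetamine. Overactive mice had 112, 89.9, 110.2, 127 and 98.2 CPM in saline and 121, 131, 109, 127 and 98.2 under amphetamine. The groups overlapped within each treatment, and the log2 difference was 0.21 (SE 0.06, edgeR adjusted p = 0.04847).

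Kcnk2 encodes TREK-1, a two-pore channel opened by membrane stretch and lipids (chromosome 1, 189207930 to 189402273). It had 119.9, 102, 125, 113 and 130.0 CPM in control saline and 120.3, 118, 109, 134 and 134 in control amphetamine. Overactive libraries had 83.9, 98.0, 105, 91.2 and 97.2 CPM in saline and 114, 83.2, 89.4, 93.1 and 98.0 under amphetamine. Of 10 overactive libraries 8 were below the lowest control library, and overactive amphetamine 1 was the highest of the line. The log2 difference was -0.34 (SE 0.06, edgeR adjusted p = 0.003029), the smallest p of the 79 genes.

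Kcnt1, the sodium-activated channel Slack (chromosome 2, 25863734 to 25918273), had 257, 224, 247, 186 and 289.5 CPM in control saline and 208, 232, 238, 199.6 and 302 in control amphetamine. Its overactive levels were 154, 176, 227, 180.4 and 222 CPM in saline and 176, 167, 221, 199.9 and 191 under amphetamine. The groups overlapped within each treatment, and 10 of 10 overactive libraries were below the control median. The log2 difference was -0.32 (SE 0.09, edgeR adjusted p = 0.04465). Kcnh3, an ether-a-go-go pore of forebrain neurons (chromosome 15, 99224861 to 99242817), had 138, 125, 124, 107 and 143 CPM in control saline and 133, 142, 128, 130 and 155 in control amphetamine. Overactive libraries held 87.1, 105, 108, 77.2 and 128 CPM in saline and 119.8, 86.6, 99.9, 142 and 112 under amphetamine. The groups of Kcnh3 also overlapped, with a log2 difference of -0.31 (SE 0.09, edgeR adjusted p = 0.04489). The row of Kcnh3 overlaps Mcrs1, and whether the counting used strand is not given in the sources used here. The plot of the genes that differed between lines shows the single libraries.

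**Figure D2:**
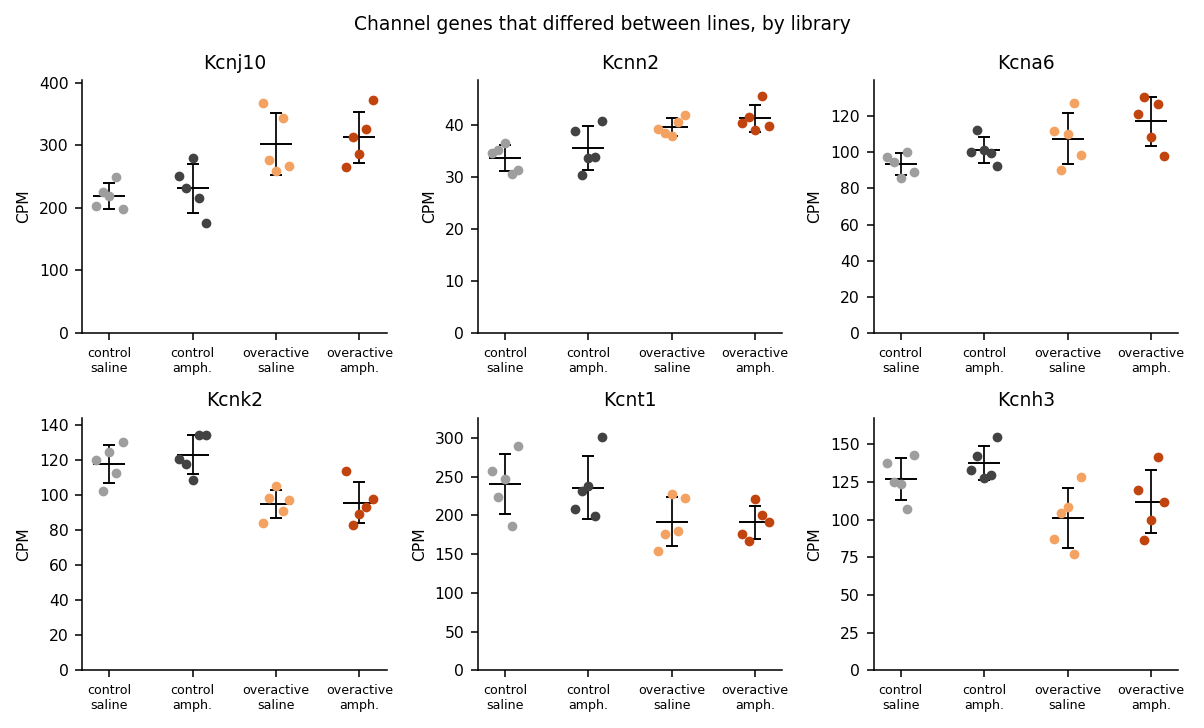
CPM per library of Kcnj10, Kcnn2, Kcna6, Kcnk2, Kcnt1 and Kcnh3 in the 4 groups, with the mean and SD of 5 libraries as black bars and axes starting at 0. Kcnj10 lies at 198 to 250.1 CPM in control saline and at 259 to 368 in overactive saline, while Kcnk2 is lower in the overactive line under both treatments.

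The line calls differ in how far they hold. Over both treatments 19 of 20 cortical markers were lower in the overactive line, 4 past the test, with a median log2 of -0.71, and 18 of 18 thalamic markers were higher, 0 past the test, with a median of 0.78. Kcnj10, Kcnk2 and Kcnn2 passed in 20 of 20 fits that left out a library, Kcnt1 and Kcnh3 in 6 each and Kcna6 in 5. Leaving out any of control saline 1, 2, 3 or 5, control amphetamine 5, overactive saline 1 or 4 or overactive amphetamine 2 left 3 calls. With the cortical marker score as a covariate 0 of 79 passed, and the calls over all genes fell from 1208 to 184 (1.07%). The adjusted p was 0.05584 for Kcnj10, 0.06679 for Kcnn2 and 0.07182 for Kcnk2, at log2 differences of 0.43, 0.25 and -0.28, and Kcnh3 moved to -0.15 (SE 0.09). Without the 4 libraries highest in thalamic markers, Kcnj10 and Kcnk2 passed, with 1.86% of all genes called.

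The Kv7 genes, pores of the M-current that muscarinic receptors close, had a negative line difference in 4 of 4, with a median log2 of -0.16, and 0 of 4 passed. Kcnq3 had -0.17 (SE 0.07, edgeR adjusted p = 0.104). The 3 minK genes, small partners of pore subunits, were positive in 3 of 3, again with 0 called, and in 2 of 3 within each treatment. Over both treatments the Kv1 beta subunits were positive in 0 of 3. The glial, ependymal or epithelial inward rectifiers, Kcnj10 among them, were positive in 3 of 3. Of all genes 50.2% were positive.

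Amphetamine was compared with saline within each line to ask how channel genes respond to the drug. No channel gene passed in either line, and neither did any of the 17206 genes tested, a share of 0%. In the control line 44 of 79 fold changes were positive (55.7%, against 48.8% of all genes), with a median log2 of 0.03, and 4 genes had an unadjusted p under 0.05 (5.56% of all genes). The 4 became 1 without control amphetamine 4, 2 without control saline 3 or 4 and 8 without the 4 libraries highest in thalamic markers (6.47% of all genes in that last fit). In the overactive line 54 of 79 were positive (68.4%, against 48.3% of all genes), with a median log2 of 0.08. There 21 genes had an unadjusted p under 0.05 (8.03% of all genes), 19 of them higher (5.05% of all genes) and 2 lower (2.98%). The 21 became 15 without overactive amphetamine 4, 16 without overactive saline 5 and 26 without overactive amphetamine 3. Without the 4 libraries highest in thalamic markers it was 29 (13.8% of all genes in that fit). DESeq2 called Kcnab2, Kcnh7 and Kcnj9 in the overactive line, 3.8% of the 79 against 0.232% of all genes, and 0 in the control line. Over both lines edgeR called 0 (0% of all genes) with 16 at an unadjusted p under 0.05 (11.0% of all genes). The 16 became 1 with the cortical marker score as a covariate (3.09% of all genes in that fit). It was 27 without the 4 libraries highest in thalamic markers (15.3%). DESeq2 called Kcnh7, Kcnab2, Kcnj3 and Kcnma1 over both lines, 5.06% of the 79 against 1.05% of all genes.

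The overactive saline group was the low point of many channel genes. It had the lowest of the 4 group means for 42 of 79 (53.2%, against 28.6% of all genes), and overactive amphetamine had the highest for 30 (38.0%, against 20%). The same overactive saline libraries serve the comparison with control saline and the comparison with overactive amphetamine. In these libraries the cortical markers were also lowest. From overactive saline to overactive amphetamine the fold change was above 0 for 19 of 20 cortical markers, at a median log2 of 1.24, and none passed the test.

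**Figure D3:**
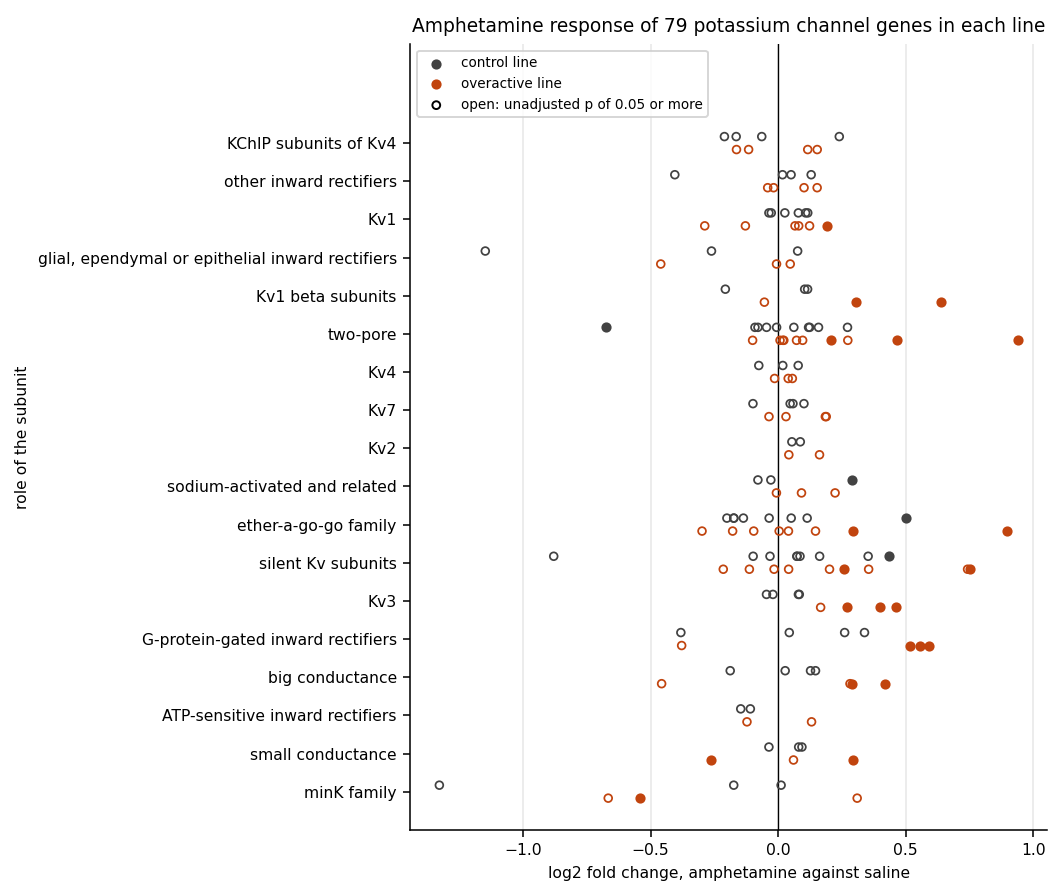
Log2 fold change of amphetamine against saline for each of the 79 channel genes, by role, in the control line (dark) and the overactive line (orange), with filled points for an unadjusted p under 0.05. In the overactive line 19 filled points lie to the right of 0 and 2 to the left, and no gene passed after adjustment.

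The inward rectifiers gated by G proteins, through which dopamine D2, opioid and GABA-B receptors silence neurons, had 3 of 4 genes at an unadjusted p under 0.05 in the overactive line, and none passed after adjustment. Kcnj3 had 60.3, 50.8, 50.6, 44.3 and 60.8 CPM in control saline and 57.9, 79.2, 55.6, 64.3 and 62.7 in control amphetamine. Overactive mice had 67.6, 39.6, 33.4, 53.0 and 45.0 CPM in saline and 81.4, 64.3, 68.2, 83.5 and 61.6 under amphetamine. The overactive groups overlapped through saline library 1, which is also among the 4 highest in thalamic markers. The log2 fold change in the overactive line was 0.59 (SE 0.15, edgeR adjusted p = 0.3614). Without those 4 libraries it was 0.95 (SE 0.16, edgeR adjusted p = 0.03468), in a fit that called 0.179% of all genes. All 4 are overactive libraries, saline 1 and 4 and amphetamine 2 and 3, so fewer mice of that line remained. Their cortical marker scores were -0.23 and -0.86 in saline and -0.76 and 0.02 under amphetamine. Both amphetamine scores were the lowest of that group, and their part in this fit was not tested.

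Kcnj9 had 66.0, 48.8, 45.9, 54.5 and 51.8 CPM in overactive saline and 90.3, 73.3, 75.8, 88.5 and 64.4 in overactive amphetamine. These groups overlapped by 1 pair of libraries, and the log2 fold change was 0.56 (SE 0.13, edgeR adjusted p = 0.3569). In the control line it had 83.5, 60.4, 66.1, 58.2 and 92.4 CPM in saline and 71.0, 92.7, 67.4, 73.3 and 67.3 under amphetamine, with wide overlap. Kcnj6, their usual partner in neurons, had 42.6 ± 8.63 CPM in overactive saline and 60.9 ± 12.6 in overactive amphetamine (SD, n = 5 each), a log2 fold change of 0.52 (SE 0.19, edgeR adjusted p = 0.4492). The scarce Kcnj5 had a fold change in the other direction, -0.38, so that 3 of 4 genes of this role were positive.

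Kcnab2, the beta subunit that brings Kv1 pores to the axon (chromosome 4, 152390742 to 152477871), had 249, 226, 229.7, 221 and 247 CPM in overactive saline and 305, 283, 255, 324 and 282 in overactive amphetamine. These groups did not overlap, which held for 0.488% of all genes in that direction, and the log2 fold change was 0.31 (SE 0.07, edgeR adjusted p = 0.3569). In the control line it had 286, 272, 248, 255 and 309 CPM in saline and 276, 316, 278, 320.3 and 282 under amphetamine, which overlapped. Kcnma1, the pore of the big conductance channel opened by calcium and voltage, had 217 ± 9.05 CPM in overactive saline and 265 ± 31.4 in overactive amphetamine (SD, n = 5 each), with a log2 fold change of 0.29 (SE 0.08, edgeR adjusted p = 0.3715). Its neuronal beta subunit Kcnmb4 had a log2 fold change of 0.42 (SE 0.14).

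Kcnh7, an ether-a-go-go related pore (chromosome 2, 62693414 to 63184287), was scarce, at 0.715 CPM per kilobase. It had 7.52, 7.89, 6.24, 6.62 and 6.44 CPM in overactive saline and 17.9, 6.57, 10.2, 15.0 and 14.9 in overactive amphetamine. Only overactive amphetamine 2, a library with a cortical marker score of -0.76 and a thalamic score of 1.57, lay within the saline range. The log2 fold change was 0.90 (SE 0.22, edgeR adjusted p = 0.3569) in the overactive line and 0.50 (SE 0.21, edgeR adjusted p = 0.8799) in the control line. The row of Kcnh7 overlaps Gca. In the plot of the amphetamine genes the cortical marker Slc17a7, a vesicular glutamate transporter, is drawn beside them. It had 137 ± 66.9 CPM in overactive saline and 414 ± 235.1 in overactive amphetamine (SD, n = 5 each).

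**Figure D4:**
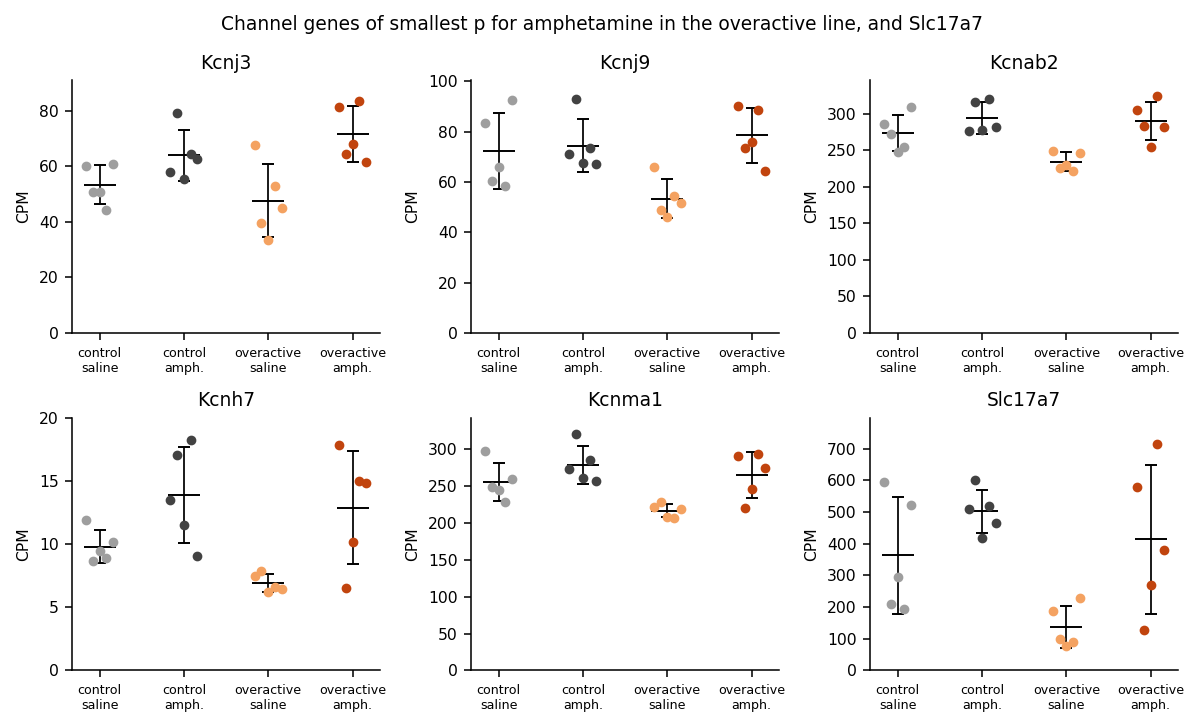
CPM per library of Kcnj3, Kcnj9, Kcnab2, Kcnh7 and Kcnma1, and of the cortical marker Slc17a7, in the 4 groups, with the mean and SD of 5 libraries as black bars and axes starting at 0. In overactive saline Kcnab2 lies at 221 to 249 CPM, under all overactive amphetamine libraries, and Slc17a7 is lowest in the same group.

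With the cortical marker score as a covariate the amphetamine fold changes in the overactive line were smaller. Kcnj3 had a log2 of 0.23 (SE 0.13), Kcnj9 0.23 (SE 0.12), Kcnh7 0.34 (SE 0.24) and Kcnab2 0.16 (SE 0.07), each with an edgeR adjusted p of 1.0. In that fit 3 of 79 genes had an unadjusted p under 0.05, and over all genes the number fell from 1382 to 439 (2.55%). The median log2 of the 79 was 0.04. The line differences of Kcnj10, Kcnn2 and Kcna6 moved little in the same fit, as the plot of both fits shows.

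**Figure D5:**
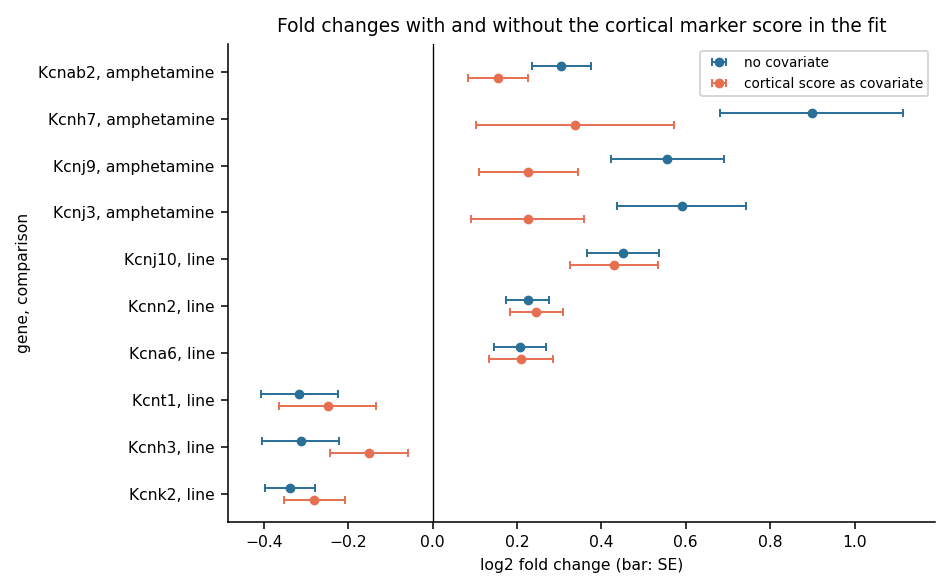
Log2 fold change with its SE for 4 genes in the amphetamine comparison of the overactive line and 6 genes in the line comparison over both treatments, without a covariate (blue) and with the cortical marker score as a covariate (red). Kcnh7 moves from 0.90 to 0.34 and Kcnj3 from 0.59 to 0.23, while Kcnj10 stays at 0.45 and 0.43.

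Because Kcnj3 and Kcnh7 are the genes with positive fold changes past the test in the overactive line without the 4 libraries high in thalamic markers, their windows of 250 bases are shown as well, from the same RefSeq table and with the same motifs in capitals. Kcnj3 is chr2:55435720-55435969 on the plus strand and Kcnh7 is chr2:63184288-63184537 on the minus strand.
Kcnj3: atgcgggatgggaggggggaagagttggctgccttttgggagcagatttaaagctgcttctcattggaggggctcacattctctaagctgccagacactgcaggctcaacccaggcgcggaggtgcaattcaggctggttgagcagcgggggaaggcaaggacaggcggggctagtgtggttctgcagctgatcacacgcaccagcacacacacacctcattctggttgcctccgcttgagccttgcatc
Kcnh7: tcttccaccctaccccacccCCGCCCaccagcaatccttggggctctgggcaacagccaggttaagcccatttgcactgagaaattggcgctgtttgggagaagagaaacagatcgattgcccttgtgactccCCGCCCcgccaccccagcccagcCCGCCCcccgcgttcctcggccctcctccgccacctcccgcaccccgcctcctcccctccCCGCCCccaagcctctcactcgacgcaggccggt
Kcnh7 held 4 GC boxes, the nearest beginning 34 bases before the start, and Kcnj3 held none of the motifs. Neither held TGACG or TGANTCA in these 250 bases. The window of Kcnj3 lies within an exon of Gm26794, an annotated gene of the other strand.

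The Kv3 pores, which let fast-spiking interneurons repolarize quickly, were positive in 4 of 4 in the overactive line, with a median log2 of 0.33. Kcnc2 had 99.1, 56.1, 64.2, 77.1 and 42.1 CPM in overactive saline and 92.8, 115, 95.6, 88.5 and 74.1 under amphetamine, and these overlapped. Its log2 fold change was 0.46 (SE 0.19, edgeR adjusted p = 0.5168). Kcnc4 had 0.40 (SE 0.18). Two-pore channels were positive in 9 of 10. Kcnk4, whose row also holds 1700019N12Rik, had a log2 of 0.94 (SE 0.29), at 3.82 CPM in overactive saline and 7.33 in overactive amphetamine. A second, smaller row carries the symbol Kcnk4 alone, with 10.3% to 27.7% of the level of both rows in single libraries. That row had a log2 of 0.07 (SE 0.20), at 0.984 CPM in overactive saline and 1.03 in overactive amphetamine. Lower values came from Kcne1l, a minK gene, at -0.54 (SE 0.19) and from Kcnn3, a small conductance channel, at -0.26 (SE 0.10).

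Whether the lines responded differently to amphetamine was tested directly, as the overactive fold change minus the control fold change. No channel gene passed with edgeR or DESeq2, as none of all genes did with edgeR (0%), and 5 of 79 had an unadjusted p under 0.05 (2.96% of all genes). The 5 became 12 without control amphetamine 2, 13 without overactive saline 1, 9 without overactive amphetamine 5, 8 without overactive saline 4 and 3 without control amphetamine 5. Without the 4 libraries highest in thalamic markers it was 21 (7.08% of all genes in that fit). The difference was positive for 53 of 79 (67.1%, against 51.4% of all genes). The smallest p of the 79 was that of Kcnab3, a further beta subunit of Kv1, with a difference of 0.84 (SE 0.27, edgeR adjusted p = 0.9999). Kcnab3 had 34.5 ± 7.94 CPM in control saline, 29.9 ± 5.15 in control amphetamine, 24.8 ± 7.29 in overactive saline and 38.5 ± 7.09 in overactive amphetamine (SD, n = 5 each). For Kcnj9 the difference was 0.51 (SE 0.19) and for Kcng1, a silent Kv subunit, -0.45 (SE 0.21).

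Partner genes that are no Kcn genes followed as a list of 44, of which 43 were tested. In the line comparison 3 of 43 passed, a share no higher than the 7.02% of all genes. Dpp10, which speeds Kv4 currents, was higher (log2 0.19, SE 0.05, edgeR adjusted p = 0.03084), as was Abcc9, the sulfonylurea receptor of ATP-sensitive channels (0.38, SE 0.10, edgeR adjusted p = 0.03167). Adam23, a membrane protein bound by the Kv1-linked ligand Lgi1, was lower (-0.16, SE 0.04, edgeR adjusted p = 0.03196). Positive line differences were seen in 1 of 2 Kv4 partners and 1 of 2 partners of ATP-sensitive channels. Among 8 partners that anchor Kv1, 3 were positive. For amphetamine in the overactive line 29 of 43 were positive with a median log2 of 0.06, and 0 passed. Rgs6, which speeds the closing of G-protein-gated channels, had 25.8 CPM in overactive saline and 36.4 in overactive amphetamine (log2 0.50, SE 0.13, edgeR adjusted p = 0.3642). Of the 6 listed partners of G-protein-gated channels, Rgs6 among them, only 3 were positive in this comparison, with a median log2 of 0.06.

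Kcnj13, an inward rectifier of choroid plexus and other epithelia, and Kcne2, a minK partner also found there, varied widely between the libraries of a group. Both, like Kcnc2 and Kcnc4 above, were named after their values were seen. Kcnj13 had 0.53, 1.69, 10.7, 1.14 and 1.8 CPM in control saline and 3.65, 1.5, 0.116, 0.855 and 1.06 in control amphetamine. In the overactive line it had 4.6, 0.498, 2.73, 10.9 and 0.228 CPM in saline and 1.35, 1.88, 8.87, 1.07 and 0.469 under amphetamine. Control saline 3, overactive saline 4 and overactive amphetamine 3 were highest, and these libraries also had the most Ttr, a choroid plexus transcript, at 654, 739 and 832 CPM. The row of Kcnj13 lies inside Gigyf2. Neither gene passed any test.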

How the data were processed

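Striatal RNA of 20 mice was sequenced in read pairs. Expected counts, 1 row per locus with a gene symbol, are what the authors deposited, and 93.92% of its values were whole within 0.01. Per the submitters' processing notes the build is named both mm10 and GRCm38. Which aligner and counter were used, and whether strand was read, are not given in the sources used here. The 10576 rows without a symbol (0.591% to 0.714% of counts per library) were left out, and counts were rounded to whole numbers.

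Members and lists were chosen with earlier results of these data known. Genes were filtered with filterByExpr of edgeR 4.0.16, which left 17206 and all 81 members, and scaled by TMM. A quasi-likelihood model of 4 group means took all 20 libraries, and 7 contrasts were tested two-sided, with Benjamini-Hochberg adjustment over all 17206. SE is the fold change divided by the root of the F statistic. Levels per kilobase use the union of GENCODE M21 exons. All members matched that annotation. A marker score is the mean deviation of log2 CPM (prior count 2) from the mean of all libraries. The model was tested on simulated data. Alternatives were RLE scaling, other filters, DESeq2 1.42.0, limma-voom with sample weights, only the groups compared, a replicate block, marker scores as covariates, and leaving out libraries. Named genes were the members that passed, the 4 of smallest p in each direction per comparison, the highest of each role and 35 listed genes, of which the text gives those that add a value. Kcnc2, Kcnc4, Kcne2, Kcnd1, Kcnk9 and the genes at the threshold fall outside this rule and were chosen after their values were seen. Protein sequences were not used here, and single values of some members are not reported here.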

Additional observations from a re-analysis of the deposited data

Results flagged for a closer look

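In 33 channel genes whose values are given, each group of 5 libraries was checked for a library far from the other 4 by Dixon's ratio, with the 95% critical value of 0.71 for 5 samples. Of 132 groups 11 held one. Chance gives about 1 in 20 for normally distributed values, but the same 20 libraries serve all 33 genes. The checks are therefore not independent, and the count cannot be read against that rate. Control amphetamine 2 was highest for Kcnj6 at 92.0 CPM, for Kcnj9 at 92.7 and for Kcnk4 at 8.92, and it had the highest cortical marker score of its group. Control saline 3 was highest for Kcnj13 at 10.7 CPM and for Kcne2 at 3.69, and overactive amphetamine 3 was highest for the same genes, at 8.87 and 3.75. Both libraries were the highest of their groups in Ttr. Kcne1l was highest in overactive saline 4 at 9.69 CPM. Control saline 5 was lowest for Kcnj16, a glial inward rectifier, at 14.9 CPM and highest for Kcnh4, an ether-a-go-go pore, at 59.9. Kcnj8, an ATP-sensitive pore, was lowest in control saline 1 at 1.72 CPM.

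A second, much smaller row of the table carries the symbol Kcnab1 and was not among the members. It passed the line test over both treatments with a log2 difference of 1.29 (SE 0.29, edgeR adjusted p = 0.01399), on levels of 0.924 and 1.05 CPM in control saline and control amphetamine and of 2.28 and 2.59 in the overactive groups. The row held 0.103% to 1.55% of the level of both Kcnab1 rows together.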

How the results depend on the processing

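The channel genes chosen in a comparison by their p kept the sign of their fold change in that comparison under the alternatives run, and other pairs of gene and comparison were not followed. Of the 6 calls between lines, 5 were left with RLE scaling, which lost Kcna6, 3 with no filter, 3 with the thalamic score as a covariate, 2 when the 4 libraries with most thalamic marker signal were left out and 0 with the cortical score as a covariate, and leaving out single libraries gave 3 to 7. For amphetamine in the overactive line DESeq2 called 3 and the fit without those 4 libraries 2, and over both lines 4 and 2, against 0. Leaving out single libraries gave 0 to 1 over both lines (1 without overactive amphetamine 2), 0 to 1 for the lines in saline (1 without control amphetamine 5 or overactive amphetamine 1) and 0 to 1 for the lines under amphetamine (1 without overactive amphetamine 1). DESeq2 called 4 in saline and 2 under amphetamine. With the thalamic score as a covariate the 25 genes at an unadjusted p under 0.05 in saline became 16. The cause of these shifts was not tested. With the replicate number as a block the line count was 6. The genes at an unadjusted p under 0.05 in the test of unequal response went from 5 to 9. That count was also 9 with limma-voom or the thalamic score and 3 with the cortical score. Same-numbered libraries correlated by -0.232 to 0.247 after removing group means, with a median of 0.0351, against -0.00848 for other numbers. The labels do not say whether the numbers mark a shared litter, batch or day, and these weak correlations over all genes cannot settle it. A fit of only the groups compared exists for the 4 comparisons of 2 groups. Kcnj13 and Kcne2, both scarce, varied more between libraries than between groups, and the cause of that spread was not tested.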

Other observations

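Kcnk9, an acid-sensitive two-pore channel, has a second row in the table that held 12.6% to 19.5% of the level of both rows in single libraries. The levels of genes with several rows come from the highest row alone.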
